A study of Rattus norvegicus with 11 samples.

Results

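Osteoclast precursor and differentiation genes were followed in the white blood cells (WBCs) of rats with collagen-induced arthritis (CIA), a joint disease raised by immunization with type II collagen (CII) in incomplete Freund's adjuvant (IFA). They were the 8 rows of the deposited expression table with the symbols Csf1, Tnfrsf11a, Oscar, Spi1, Mitf, Nfatc1, Acp5 and Ctsk, out of 32623 genes. Each symbol stood on 1 row only, and no other gene of the table overlapped any of them. All animals were male Wistar rats, 7 weeks old at the start. The 4 CIA rats were injected with IFA-CII, boosted on day 7 and bled at Nampt++ status, when the authors' PCR showed Nampt overexpressed in the WBCs (about day 8), and at Nampt+ status, when it was back at the level of healthy rats (about day 14). The 3 control samples were from normal healthy rats without CIA. Nampt status was thus assigned by measured expression and goes with sampling day, so that status and day cannot be told apart.

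Osteoclasts are large multinucleated cells that resorb bone, and they are formed by fusion of precursors of the monocyte lineage that circulate in blood. Csf1 (macrophage colony-stimulating factor) keeps these precursors alive through its receptor Csf1r, and RANKL (Tnfsf11) drives their differentiation through RANK, the product of Tnfrsf11a, while the decoy receptor Tnfrsf11b competes for RANKL. Oscar is a costimulatory receptor that signals through the adaptor Fcer1g and the kinase Syk. The factors Spi1 (PU.1), Mitf and Nfatc1, the last being the master regulator of the program, then switch on the genes of mature osteoclasts, among them Acp5 (tartrate-resistant acid phosphatase) and Ctsk (cathepsin K, the protease that degrades bone collagen). In arthritis, osteoclasts erode the bone at inflamed joints. Several members have other sources in blood, since Spi1 is used by all myeloid cells and B cells, Nfatc1 by lymphocytes, and Acp5 by macrophages and dendritic cells.

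Promoters from RefSeq (assembly GRCr8, another source than the positions of the deposited table) covered 4 of the 8 members, with 2 start sites for Acp5, and those that held letters recognised by Spi1, Nfatc1 or Mitf are shown to let the regulators be seen beside their known targets. The motifs searched on both strands were GAGGAA for PU.1, TGGAAA for NFAT, CACGTG and CATGTG for Mitf and TGACTCA for AP-1, and the capitals mark where one was found. Each promoter runs from 250 bases before to 50 bases after its start site. The Oscar window lies at chr1:74522633-74522932 (plus strand), the Ctsk window at chr2:185747298-185747597 (plus strand) and the window of the Acp5 start 2 at chr8:28943880-28944179 (minus strand).
Oscar: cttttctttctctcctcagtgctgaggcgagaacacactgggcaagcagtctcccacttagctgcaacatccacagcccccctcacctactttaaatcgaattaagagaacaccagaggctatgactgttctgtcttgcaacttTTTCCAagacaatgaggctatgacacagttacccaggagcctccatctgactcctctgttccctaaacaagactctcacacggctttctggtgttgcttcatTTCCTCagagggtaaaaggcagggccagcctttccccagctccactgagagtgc
Ctsk: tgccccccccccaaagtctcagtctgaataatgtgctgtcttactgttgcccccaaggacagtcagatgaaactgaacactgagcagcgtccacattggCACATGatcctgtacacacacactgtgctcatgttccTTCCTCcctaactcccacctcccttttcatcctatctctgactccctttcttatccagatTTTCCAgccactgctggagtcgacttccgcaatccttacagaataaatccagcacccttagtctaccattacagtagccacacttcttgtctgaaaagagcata
Acp5 start 2: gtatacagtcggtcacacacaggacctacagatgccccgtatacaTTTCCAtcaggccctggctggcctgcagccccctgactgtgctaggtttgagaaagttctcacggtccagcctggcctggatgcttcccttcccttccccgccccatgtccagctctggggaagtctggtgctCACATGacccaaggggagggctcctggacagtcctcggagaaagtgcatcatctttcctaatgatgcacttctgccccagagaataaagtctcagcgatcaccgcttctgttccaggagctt
Every capital run here is the reverse complement of its motif. TTCCTC, the PU.1 core, began at base -4 of Oscar and -114 of Ctsk, counted back from the start site. TTTCCA, the NFAT letters, began at -106 of Oscar, -54 of Ctsk and -205 of Acp5 start 2. CACATG, one of the Mitf letters, began at -151 of Ctsk and -72 of Acp5 start 2. The windows of Mitf (chr4:131965490-131965789, plus strand) and of Acp5 start 1 (chr8:28945881-28946180, minus strand) held none of the motifs. Such short letters are common, and of 33469 rat promoters of this length 27.6% held the PU.1 core, 22.7% the NFAT letters, 6.42% CACGTG, 14% CATGTG and 4.63% the AP-1 letters.

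Levels are given as FPKM, the fragments of a gene relative to transcript length and library total, and can be compared between genes. Over all 11 samples the mean FPKM was 145 for Spi1, 87.8 for Acp5, 60.3 for Csf1, 15.0 for Oscar, 12 for Nfatc1, 2.33 for Ctsk, 1.03 for Mitf and 0.231 for Tnfrsf11a. Tnfrsf11a was thus the 1 member below a mean FPKM of 1, and Mitf lay just above that level, with 7 of 11 samples below it. The order was clear in part only. Csf1 was above Oscar and Nfatc1 above Ctsk in 11 of 11 samples, but Spi1 was above Acp5 in 7, Acp5 above Csf1 in 7 and Oscar above Nfatc1 in only 2 of 11. The mean of Oscar exceeded that of Nfatc1 through few samples. Total counts ranged from 65340027 to 85819418 per sample, and 11 haemoglobin genes took 6.84% to 42.8% of them. The extraction protocol of the labels speaks of retinas, whereas 0 of 8 retinal markers reached a mean FPKM of 1 and Rcvrn, Crx and Nrl were at 0 in all samples, so the samples were taken as WBCs, as their source labels and the methods have it.

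Several RNAs of mature osteoclasts were at or near 0. Calcr, the calcitonin receptor that marks them, was at 0 in all 11 samples, and the fusion genes Ocstamp and Dcstamp reached at most 0.0331 and 0.550 FPKM, while Atp6v0d2, a proton pump subunit of the resorbing cell, reached at most 0.0316 FPKM. The ligand Tnfsf11 and its decoy Tnfrsf11b were at 0 in every sample too. Of the 8 genes used as osteoclast markers, 4 averaged 1 FPKM or more. They were Acp5 at 43.7 to 211, Mmp9 at 9.60 to 155, Itgb3, also a platelet integrin, at 8.59 to 34.8 and Ctsk at 1.45 to 3.53 FPKM. Acp5, Mmp9 and Itgb3 are also expressed by other blood cells, and which cells these RNAs came from was not tested. Csf1r, the receptor of Csf1, was at 15.9 to 88.5 FPKM.

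**Figure D1:**
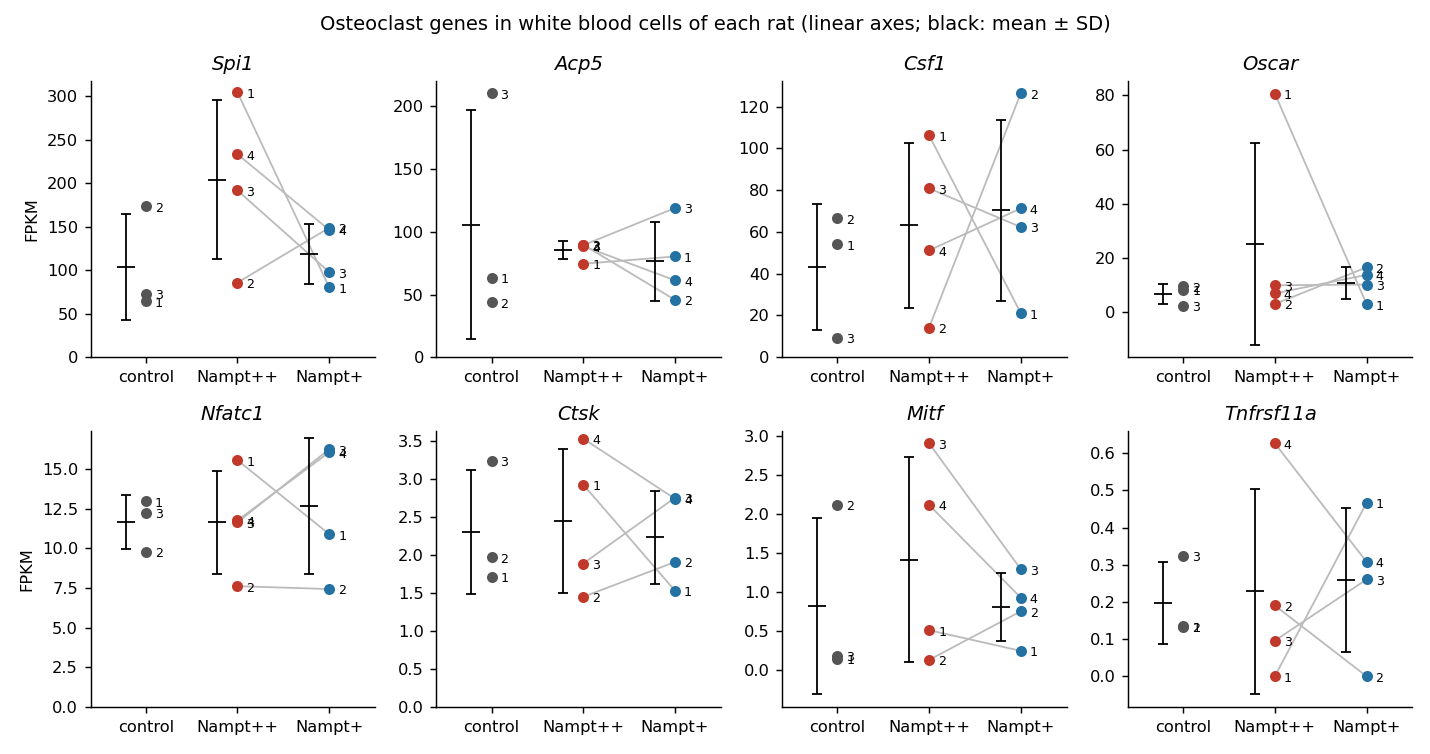
FPKM of the 8 genes in each sample (vertical axes, linear), by group (horizontal axis), with the sample or rat number beside each point and grey lines joining the samples of 1 rat. Black bars are the mean ± SD of a group, the groups overlap for every gene, and the Nampt++ sample of rat 1 stands highest for Spi1 (304 FPKM) and Oscar (80.6 FPKM).

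Csf1 (ENSRNOG00000018659, chromosome 2, 210522375 to 210550546, minus strand) is the ligand of the set. It was at 54.0, 66.5 and 9.33 FPKM in controls 1 to 3. The Nampt++ samples of rats 1 to 4 were at 106, 14.2, 80.8 and 51.1 FPKM, and the Nampt+ samples of the same rats at 21.1, 126, 62.3 and 71.2 FPKM. Each group held both low and high samples, and the highest sample was 13.5 times the lowest. Within rats the direction was mixed, as rats 1 and 3 were lower and rats 2 and 4 higher at Nampt+ status, rat 1 by a ratio of 0.199.

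Tnfrsf11a (ENSRNOG00000015615, chromosome 13, 25778317 to 25835957, plus strand), the receptor of RANKL, was at 0.135, 0.133 and 0.323 FPKM in the controls. It was listed at 0 in the Nampt++ sample of rat 1 and was at 0.190, 0.0958 and 0.626 FPKM in those of rats 2 to 4. At Nampt+ status it was at 0.466 FPKM in rat 1, listed at 0 in rat 2, and at 0.260 and 0.308 FPKM in rats 3 and 4. All 11 samples were below 1 FPKM, and the receptor was read from no more than 123 counts in any sample. No difference between the groups was detected, with values this low, a wide spread within groups and 3 or 4 samples in each. As the cells were not sorted, few precursors with much Tnfrsf11a RNA and many cells with little cannot be told apart, which holds for every gene here.

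Oscar (ENSRNOG00000055716, chromosome 1, 64182422 to 64188658, plus strand), the costimulatory receptor, was at 8.26, 9.63 and 2.41 FPKM in the controls. The Nampt++ samples were at 80.6, 3.11, 9.997 and 7.02 FPKM and the Nampt+ samples at 3.07, 16.6, 10.3 and 13.8 FPKM. One sample, Nampt++ of rat 1, was far above the other 10, which lay between 2.41 and 16.6 FPKM. From Nampt++ to Nampt+ status Oscar was higher in rats 2, 3 and 4, by ratios of 5.33, 1.03 and 1.97, and lower in rat 1, by a ratio of 0.0380. Its coefficient of variation over the 11 samples was 148%, larger than that of 99.7% of the 11242 genes averaging an FPKM of 1 or more, whose median was 33.7%.

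Spi1 (ENSRNOG00000012172, chromosome 3, 79918969 to 79938301, plus strand) encodes PU.1, which sets up the myeloid lineage. It was at 64.4, 173 and 72.9 FPKM in the controls. The Nampt++ samples were at 304, 85.7, 192 and 233 FPKM, and the Nampt+ samples at 80.1, 149, 97.7 and 146 FPKM. The 3 highest of the 11 samples were Nampt++ samples and the 2 lowest were controls, yet control 2 was above every Nampt+ sample and the Nampt++ sample of rat 2 was below 3 of them. Spi1 was lower at Nampt+ status in rats 1, 3 and 4, by ratios of 0.263, 0.510 and 0.627, and higher in rat 2, by a ratio of 1.73. Groups took up 33.7% of the sum of squares of its log2(FPKM + 1), against a median gene at 6.32% and 1.07% to 9.03% for the other members. How many of all genes had a share this large was not tested, and the groups overlapped in Spi1.

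Mitf (ENSRNOG00000008658, chromosome 4, 130172727 to 130425532, plus strand), which acts with Spi1 on osteoclast genes, was at 0.140, 2.12 and 0.182 FPKM in the controls. The Nampt++ samples were at 0.507, 0.125, 2.90 and 2.11 FPKM and the Nampt+ samples at 0.241, 0.748, 1.29 and 0.924 FPKM. Control 2 and the Nampt++ samples of rats 3 and 4 were the high ones, and both of these groups also held low samples. At Nampt+ status Mitf was lower in rats 1, 3 and 4 and higher in rat 2, the same rats as for Spi1.

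Nfatc1 (ENSRNOG00000017146, chromosome 18, 77203525 to 77322690, minus strand) varied least. It was at 13.0, 9.77 and 12.3 FPKM in controls, at 15.6, 7.62, 11.7 and 11.8 FPKM in Nampt++ samples and at 10.9, 7.44, 16.3 and 16.1 FPKM in Nampt+ samples. Rat 2 was lowest at both times, and the highest sample was only 2.19 times the lowest. Its coefficient of variation, 25.6%, was larger than that of 17.9% of genes.

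Acp5 (ENSRNOG00000046261, chromosome 8, 23142734 to 23148396, minus strand), a target of Nfatc1 and Mitf, was at 63.3, 43.7 and 211 FPKM in controls. The Nampt++ samples were at 74.5, 89.7, 89.3 and 88.6 FPKM and the Nampt+ samples at 80.4, 45.7, 119 and 61.3 FPKM. Control 3 was the highest and control 2 the lowest of all samples, so that the spread of the controls held every CIA sample. The Nampt++ samples lay close together, with an SD of 7.35 FPKM (n = 4) against 31.6 FPKM (n = 4) in Nampt+ samples and 91.2 FPKM (n = 3) in controls.

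Ctsk (ENSRNOG00000021155, chromosome 2, 196655469 to 196666446, plus strand) was at 1.71, 1.97 and 3.24 FPKM in controls. The Nampt++ samples were at 2.93, 1.45, 1.89 and 3.53 FPKM and the Nampt+ samples at 1.53, 1.91, 2.75 and 2.74 FPKM. The 3 groups covered nearly the same range, and rats 1 and 4 were lower, rats 2 and 3 higher at Nampt+ status. By the means over the 11 samples the FPKM of Acp5 was 37.7 times that of Ctsk, although both are osteoclast genes.

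To ask whether CIA changes these genes in circulating cells, each pair of groups was tested by quasi-likelihood in edgeR from the read counts, for every gene whose FPKM averaged 1 or more. The thresholds of the study were applied, and genes are said to be called if the group mean FPKMs stood in a ratio over 2 or below 0.5 with an unadjusted p under 0.05. Between Nampt++ samples and controls 0 of 7 members tested were called, where 0.686% of 11219 genes were (0.33% higher and 0.357% lower). Between Nampt+ samples and controls 0 of 6 were called against 0.497% of 11269 genes (0.213% higher and 0.284% lower), Mitf being below the minimum there, and between Nampt+ and Nampt++ samples 0 of 7 against 0.642% of 11219 genes (0.312% higher and 0.33% lower). With so few members a count of 0 is near these shares. No member had groups without overlap, against 1.1%, 0.444% and 0.41% of genes, and none reached an unadjusted p of 0.05 in any of the 3 comparisons, against 1.57%, 0.87% and 2.28% of genes. No gene of the table had an adjusted p under 0.05 in edgeR either, while DESeq2 gave 5, 4 and 5. The comparisons share samples, the Nampt++ group being in 2 of them, and are not independent.

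The estimates for Oscar and Spi1 were the largest between Nampt++ samples and controls. Spi1 was at 204 ± 91.3 FPKM in Nampt++ samples (SD, n = 4) and 103 ± 60.4 FPKM in controls (SD, n = 3), with a log2 fold change of 0.76 (standard error 0.55, 95% interval -0.53 to 2.04, edgeR, adjusted p = 0.9999). An exact permutation test of log2(FPKM + 1), whose smallest possible p is 0.0286, gave p = 0.143 for it. Control 2 decided this value. Without it, with 2 controls left, the log2 fold change was 1.67 (standard error 0.43, edgeR, unadjusted p = 0.00597). Spi1 was then the 1 member called, where 462 genes of the whole table were called in place of 77. As this fit was picked by its result from those leaving out 1 sample, its p cannot serve as a test. Oscar had a log2 fold change of 1.65 (standard error 1.14, 95% interval -0.98 to 4.27), which moved to -0.18 once the Nampt++ sample of rat 1 was left out. The intervals of Csf1 (-1.60 to 2.20) and Mitf (-2.51 to 3.39) were also wide, so that large changes in either direction would not have been seen. Those of Nfatc1 (-0.56 to 0.45), Ctsk (-0.68 to 0.76) and Acp5 (-1.06 to 0.74) were narrower.

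Between Nampt+ samples and controls the log2 fold changes were 0.84 for Csf1 (95% interval -1.34 to 3.02), 0.79 for Oscar (-1.08 to 2.66), 0.23 for Spi1 (-1.18 to 1.64), 0.10 for Nfatc1 (-0.32 to 0.52), 0.04 for Ctsk (-0.75 to 0.84) and -0.32 for Acp5 (-1.26 to 0.63). Every interval held 0. Exact permutation tests gave p from 0.4 for Csf1 to 0.914 for Ctsk. Mitf, not in that fit, was at 0.800 ± 0.436 FPKM in Nampt+ samples (SD, n = 4) and 0.813 ± 1.13 FPKM in controls (SD, n = 3). These means differed by less than either SD. On log2(FPKM + 1) the mean was instead 0.12 higher in Nampt+ samples (exact permutation test, p = 0.771).

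Between the Nampt+ and Nampt++ samples of the same rats, Spi1 had a log2 fold change of -0.52 (standard error 0.45, 95% interval -1.53 to 0.50), from 204 ± 91.3 to 118 ± 34.5 FPKM (SD, n = 4). The exact permutation test gave p = 0.171 and sign flips within the rats p = 0.375, of which the smallest possible value is 0.125. The difference in mean log2(FPKM + 1) was -0.69, and it ranged from -1.06 to -0.45 when 1 sample was left out. The value of -1.06 came without the Nampt++ sample of rat 2, the 1 rat with Spi1 higher at Nampt+ status. The groups then did not overlap (exact permutation test, p = 0.0286, the smallest possible for 4 samples against 3). As this set of samples was picked out by its result for Spi1, that p cannot serve as a test. Leaving out the Nampt++ sample of rat 2 also breaks the pair of that rat, and it raised the count of all genes called from 72 to 163. How many of all genes were without overlap in that set was not tested. The log2 fold changes of the others were -0.85 for Oscar (95% interval -3.12 to 1.42), -0.67 for Mitf (-2.59 to 1.25), -0.14 for Acp5 (-0.64 to 0.37), 0.02 for Ctsk (-0.70 to 0.74), 0.17 for Nfatc1 (-0.25 to 0.60) and 0.55 for Csf1 (-1.14 to 2.24). That of Oscar turned to 0.97 once the Nampt++ sample of rat 1 was left out, and to 0.11 with the rat as a block. Tnfrsf11a, tested by permutation alone, gave p = 0.971, 0.686 and 0.829 in the 3 comparisons (exact permutation tests), with group means of 0.197 FPKM in controls, 0.228 in Nampt++ and 0.259 in Nampt+ samples.

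**Figure D2:**
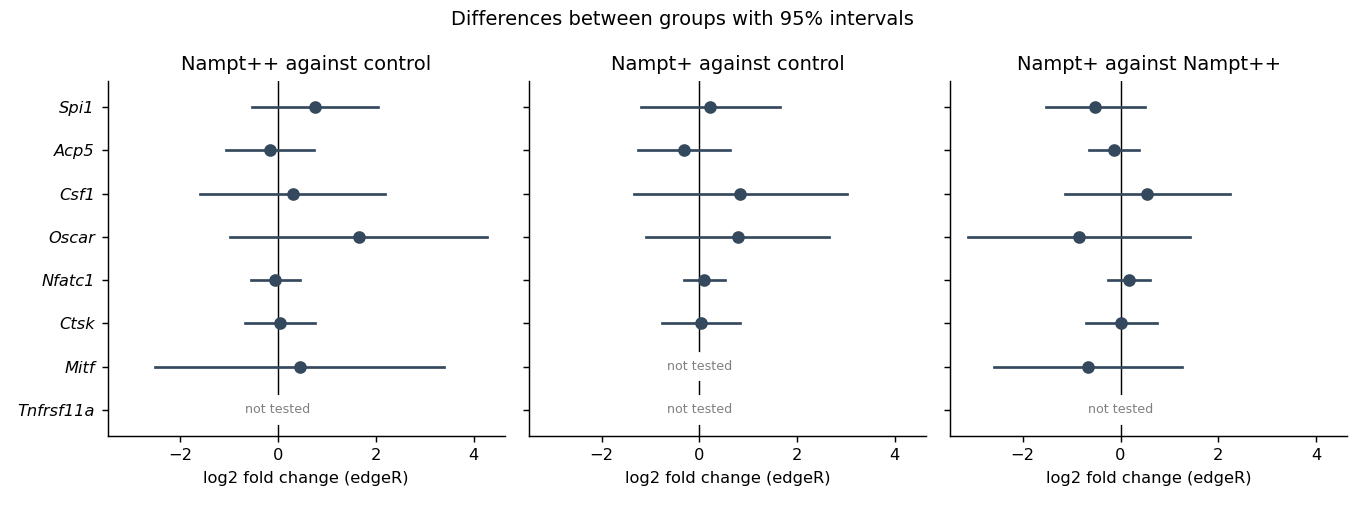
Log2 fold change of each gene (horizontal axis) from edgeR in the 3 comparisons, with points for the estimate and lines for the 95% interval. Every interval holds 0, those of Oscar, Mitf and Csf1 are the widest, and genes below a mean FPKM of 1 in the samples compared are given as not tested.

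Most of the variation of each member lay within the groups, and the levels of several went with those of blood cell markers. WBC samples are mixtures, and the summed FPKM of 14 neutrophil markers, mostly S100a9 and S100a8, was 7456, 14235 and 2168 in controls, 40385, 3016, 12863 and 9240 in Nampt++ samples and 3827, 15635, 5244 and 14437 in Nampt+ samples. The 3 samples lowest in neutrophil markers were control 3, rat 2 at Nampt++ status and rat 1 at Nampt+ status, and they were also the 3 lowest in Csf1 and in Oscar, and the Nampt++ sample of rat 1 was highest in these markers and in Oscar. Over the 11 samples, 8 of which are 4 rats at 2 times each, Pearson's r of log2(FPKM + 1) with the neutrophil sum was 0.92 for Oscar (Spearman's rho 0.88), 0.90 for Csf1 (rho 0.93) and 0.83 for Spi1 (rho 0.73). Without the 2 samples farthest from the median it was 0.86 for Oscar, 0.89 for Csf1 and 0.70 for Spi1. With the monocyte sum Spi1 had an r of 0.68 (rho 0.68), and 0.71 without the 2 farthest, so it went with both lists. The monocyte sum was mostly Lyz2 and Cd74, at means of 8098 and 2760 FPKM, with no other gene of that list above a mean of 96.4. It therefore reads mainly these 2 genes. From Nampt++ to Nampt+ status Csf1 moved the way of the neutrophil markers in 4 of 4 rats, Oscar, Spi1 and Mitf in 3 of 4, and Acp5 in 0 of 4. The eosinophil sum, low and from 6 markers, moved like the neutrophil sum. Whether cell proportions account for these levels was not tested.

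Acp5 had its highest r with B cell markers. The summed FPKM of 8 B cell markers was 351, 175 and 816 in controls, 299, 381, 280 and 275 in Nampt++ samples and 413, 198, 356 and 324 in Nampt+ samples. Control 3 was highest in both Acp5 and B cell markers, and control 2 and the Nampt+ sample of rat 2 were lowest in both. Pearson's r of Acp5 with this sum was 0.87 (rho 0.68) over the 11 samples and 0.56 without the 2 farthest samples. It was 0.67 with the T cell sum, 0.23 with the NK cell sum and -0.65 with the neutrophil sum. Mitf went most closely with the monocyte sum (r = 0.74, rho 0.65), which was mostly Lyz2 and Cd74. That sum ranged from 7685 to 15853 FPKM, with Cd163 at 0 in all samples. Tnfrsf11a had its highest r with T cell markers (0.62, rho 0.68), from values too low to read more into it. Nfatc1 went with the markers of basophils and mast cells (r = 0.74), and Ctsk had its strongest value with erythroid markers (r = -0.83), which for Nfatc1 was -0.69. FPKM are relative to the whole library, so a sample with more haemoglobin RNA leaves less for all other genes. The FPKM and the r values were not rescaled for this, and the part of haemoglobin in them was not tested. In the edgeR fits no member was called with or without the haemoglobin genes, which says nothing about these r values.

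**Figure D3:**
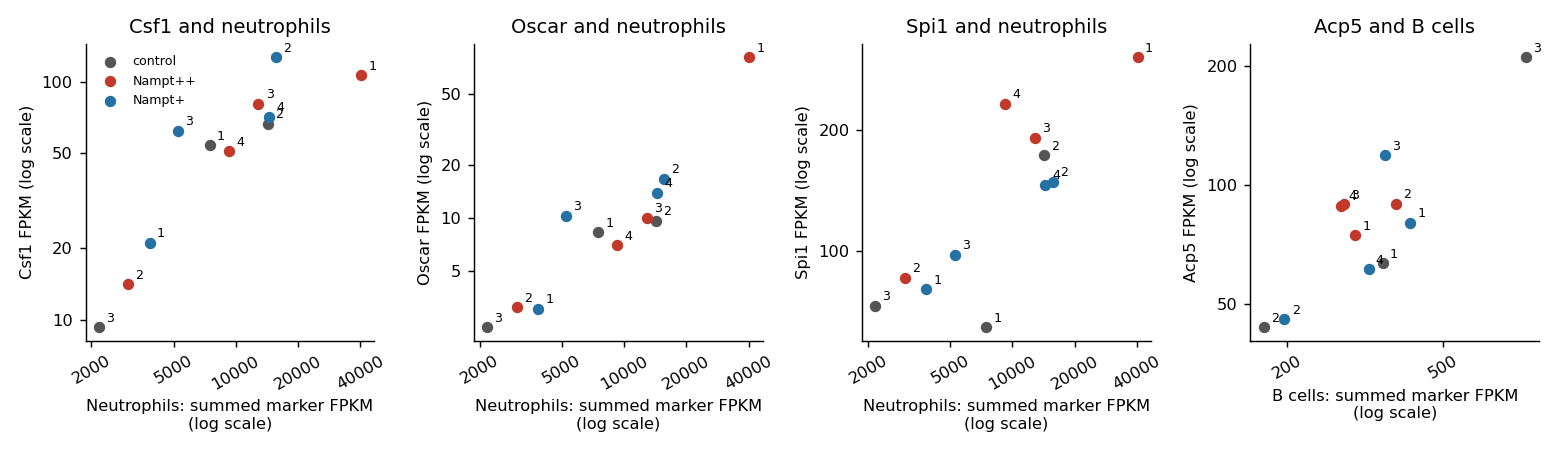
FPKM of Csf1, Oscar and Spi1 against the summed FPKM of neutrophil markers and of Acp5 against that of B cell markers (both axes logarithmic), with 1 point per sample, coloured by group and numbered by sample or rat. Samples of all 3 groups lie along the same course, with Pearson's r of 0.90, 0.92, 0.83 and 0.87 on log2(FPKM + 1).

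**Figure D4:**
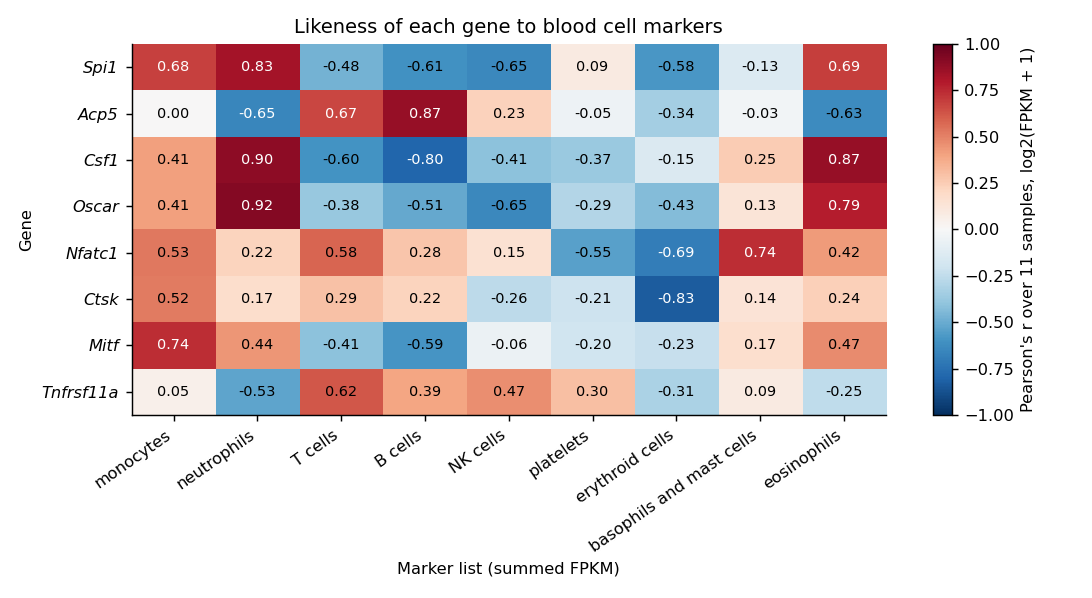
Pearson's r of log2(FPKM + 1) over 11 samples between each gene (rows) and the summed FPKM of each blood cell marker list (columns), with the value in each cell and colours from -1 (blue) to 1 (red). Oscar and Csf1 had their highest values with neutrophil markers (0.92 and 0.90), Acp5 with B cell markers (0.87) and Mitf with monocyte markers (0.74).

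Among themselves, Oscar and Csf1 were the most alike pair (r = 0.82, rho 0.94 over 11 samples, and r = 0.96 without the 2 farthest), followed by Oscar and Spi1 (r = 0.73), Spi1 and Csf1 (r = 0.67) and Mitf and Spi1 (r = 0.65). Acp5 and Csf1 ran opposite ways (r = -0.67, rho -0.60, and -0.41 without the 2 farthest). Their FPKM ratio, Csf1 over Acp5, went from 0.0443 in control 3 to 2.76 in the Nampt+ sample of rat 2. Between factors and genes they are known to act on, r was 0.30 for Nfatc1 and Acp5, 0.60 for Nfatc1 and Ctsk, -0.22 for Mitf and Acp5, 0.26 for Mitf and Ctsk, 0.41 for Spi1 and Ctsk and -0.35 for Spi1 and Acp5. These values are descriptions over few samples that share libraries.

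The genes of the table with levels most like those of each member were named by a fixed rule, the 3 with the highest Pearson's r over the 11 samples. For Oscar they were Myd88 (0.98), an adaptor of Toll-like receptors, Csf3r (0.98), the granulocyte colony-stimulating factor receptor and itself one of the neutrophil markers, and Slc32a1 (0.98). For Csf1 they were Il1r2 (0.96), the decoy receptor of interleukin 1, G0s2 (0.96) and Hcar2 (0.95). For Spi1 they were Cd302, Ethe1 and Lamp2 (all 0.98), the last a lysosomal membrane protein. For Acp5 they were Cd74 (0.99), the invariant chain of class II antigen presentation, AABR07002700 (0.97) and the class II gene RT1-Da (0.96). Cd74 is also one of the monocyte markers used here. Mitf was most like Slc7a2 (0.99), an arginine transporter, Smim3 (0.97) and Cks2 (0.97), and Nfatc1 most like Slc35e2b (0.98), Itpr2 (0.97), a calcium channel of the endoplasmic reticulum, and Nisch (0.97). Ctsk reached no more than 0.90, with Haus3, RGD1305455 and AABR07039328 at 0.90, 0.89 and 0.89. All these r were picked as the highest over 11 samples, a choice that by itself favours high values. They were not repeated without far samples, such as Nampt++ rat 1 for Oscar (80.6 FPKM) or control 3 for Acp5 (211 FPKM).

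Around the 8 members, 142 further genes of the osteoclast pathway were found in the table and 127 were tested in each comparison. Between Nampt++ samples and controls 0 were called, between Nampt+ samples and controls 1 (0.787%) and between Nampt+ and Nampt++ samples 4 (3.15%), beside 0.686%, 0.497% and 0.642% of all genes tested. None of these had an adjusted p under 0.05 in edgeR. The lists were chosen with earlier results of these data known, so these shares and the directions below describe the lists and are not a test of the pathway. The 14 tested ligands and receptors all had a positive log2 fold change in Nampt++ samples against controls (median 0.50, against 0.00 over all genes tested), 7 of 14 did in Nampt+ samples against controls, and 0 of 14 in Nampt+ against Nampt++ samples (median -0.42), the last sharing the Nampt++ samples with the first. The median neutrophil marker sum was 11051 FPKM in Nampt++ samples, 9840 in Nampt+ samples and 7456 in controls, and the median share of counts in haemoglobin genes was 14%, 22.1% and 30.1%, with ranges that overlap. Their part in these directions was not tested. The 26 tested genes of fusion, attachment and resorption were positive in 24, 20 and 4 cases, with medians of 0.27, 0.09 and -0.16. Of all genes tested 50.4%, 49.3% and 50% were positive. As the genes of a list were measured in the same few libraries, their signs are not independent. The costimulatory arm had medians of 0.11, 0.09 and -0.11 over 18 genes and the kinases 0.14, 0.04 and -0.11 over 36 genes, and 21 factors for osteoclast formation had medians of -0.04, -0.05 and -0.08. Of 12 restraining factors 0 were called in any comparison. Irf8, which restrains osteoclast formation, was at 32.2 to 97.7 FPKM and was not called.

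Syk, the kinase downstream of Oscar and Fcer1g, was the gene called in both comparisons of Nampt+ samples. It was at 43.8, 41.5 and 16.6 FPKM in controls, at 19.6, 39.7, 50.8 and 49.4 FPKM in Nampt++ samples and at 10.4, 6.38, 15.0 and 18.6 FPKM in Nampt+ samples. All Nampt+ samples were below all Nampt++ samples, whereas control 3 lay within the Nampt+ range. The log2 fold change was -1.58 against controls (standard error 0.43, edgeR, unadjusted p = 0.00667) and -1.67 against Nampt++ samples (standard error 0.33, edgeR, unadjusted p = 0.00066). Fcer1g, the adaptor between Oscar and Syk, was at 580 ± 184 FPKM in controls (SD, n = 3), 943 ± 415 in Nampt++ and 740 ± 143 in Nampt+ samples (SD, n = 4).

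Il1a and Il1r1, interleukin 1 alpha and its signalling receptor, were called lower and Fosb, a subunit of AP-1, higher in Nampt+ than in Nampt++ samples. Il1a was at 6.14, 8.69, 8.06 and 11.3 FPKM in Nampt++ samples, above all Nampt+ samples at 3.15, 2.42, 4.99 and 3.48 FPKM. Il1r1 was at 9.59, 0.114, 5.00 and 5.38 FPKM and at 0.284, 0.719, 0.870 and 1.84 FPKM, so that the Nampt++ sample of rat 2 was the lowest of all 8. Fosb was at 21.2, 26.1, 77.2 and 54.2 FPKM in Nampt++ samples and at 103, 51.9, 127 and 135 FPKM in Nampt+ samples, and its controls ranged from 15.6 to 212 FPKM, beyond both. The log2 fold changes were -1.22 for Il1a (standard error 0.24), -2.28 for Il1r1 (0.97) and 1.23 for Fosb (0.39). With the rat as a replicate block Il1r1 was no longer called (-1.92, standard error 1.46, edgeR, unadjusted p = 0.237), while Syk, Il1a and Fosb were. Il1r1 was also not called in 6 of the 8 fits that left out 1 sample (log2 fold changes of -2.43 to -1.78) and was called when Nampt++ rat 2 or Nampt+ rat 4 was left out. Fosb was not called when Nampt++ rat 1 was left out (0.98).

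Tnf, a cytokine that promotes osteoclast formation, is named after its values were seen, as the 1 pathway gene of 127 without overlap between Nampt++ samples and controls, where 1.1% of all genes tested had none. It was at 23.7, 23.7 and 16.1 FPKM in controls and at 118, 29.5, 24.4 and 44.6 FPKM in Nampt++ samples. The log2 fold change of 1.20 (standard error 0.56, edgeR, unadjusted p = 0.063) did not pass, and since the table lists a near-identical copy, LOC103694380, its reads could be divided between both. Without control 2, 19 of 127 pathway genes (15.0%) and 462 of 11303 genes in all (4.09%) were called between Nampt++ samples and controls. Without the Nampt++ sample of rat 2, 10 of 126 pathway genes (7.94%) and 163 of 11258 genes in all (1.45%) were called between Nampt+ and Nampt++ samples. Control 2 had the highest neutrophil and monocyte sums and the lowest T cell sum of the controls, and the Nampt++ sample of rat 2 the lowest neutrophil sum of its group. Whether these sums bear on the counts was not tested, and the 2 samples were looked at after the counts were seen.

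**Figure D5:**
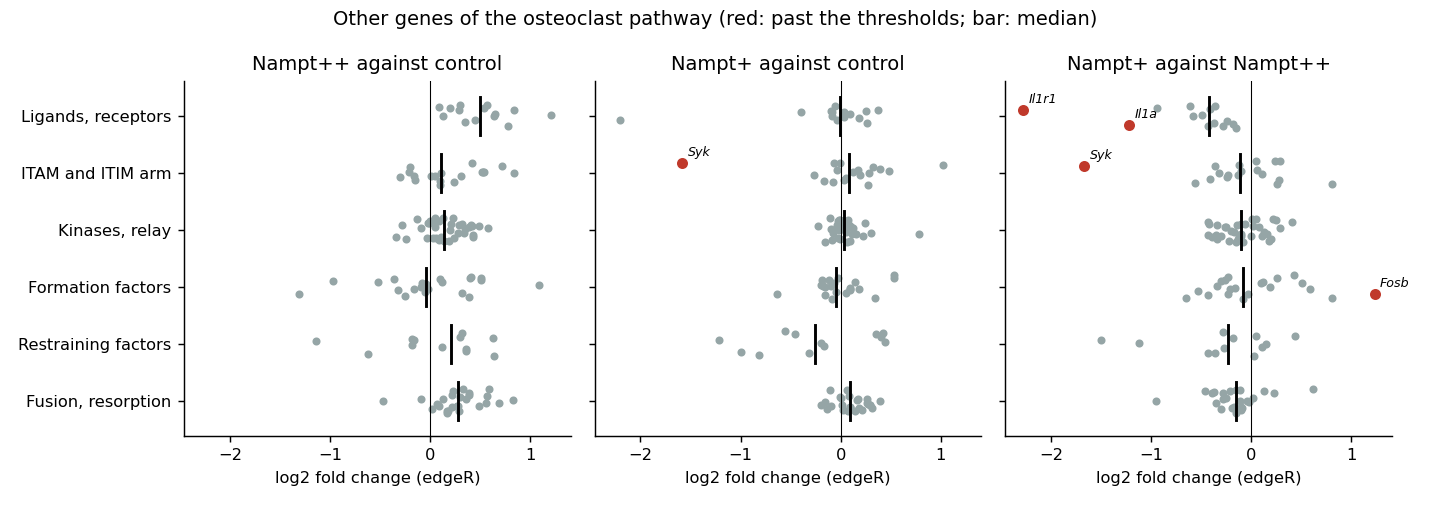
Log2 fold change (horizontal axis, edgeR) of each of 127 tested pathway genes outside the 8 members, by role (vertical axis) in the 3 comparisons, with grey points for genes not called, red named points for genes called and black bars for medians. The 14 ligands and receptors lie above 0 in Nampt++ samples against controls (median 0.50) and below 0 in Nampt+ against Nampt++ samples (median -0.42).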

How the data were processed

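RNA of WBCs from 4 CIA rats, each at 2 statuses, and from 3 control rats had been sequenced by the authors, who deposited 1 table with counts and FPKM of 32623 genes. Counts are whole reads per gene, deposited without normalization, and FPKM are the fragments scaled by transcript length and sample total, as the authors deposited them. An FPKM of 0.0001 stood only beside a count of 0 and was read as 0. The submitters' processing notes name cutadapt 1.9, HISAT2 2.0.4 and StringTie 1.3.4. The genome build, the counting program and the strand setting were not given in the sources used here, and no per-sample column was left unused. Positions of genes are as deposited.

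The members and the lists of pathway and marker genes were chosen with earlier results of these data known. Groups came from the labels, and each pair was tested with edgeR 4.0.16 (quasi-likelihood test on counts, TMM normalization, genes averaging an FPKM of 1 or more in the pair, Benjamini-Hochberg adjustment over all genes tested). TMM factors ran from 0.579 to 1.30. Single members were compared on log2(FPKM + 1) by two-sided exact permutation, enumerated in Python 3.11.15 with NumPy 2.4.6. Named besides the members were all pathway genes called, the 3 genes most like each member, and, as their direct partners or as defining markers, genes of the fixed lists. Markers not found under their symbols, such as Ccr2 and Cd79a, were not used here.

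Samples with the same number at Nampt++ and Nampt+ status are of 1 rat by the labels and the methods, so that the rat gave the replicate block in an alternative, which changed no call of a member. Rats 1 to 4 had correlations between their 2 samples, as deviations from group means, of -0.27, -0.24, 0.23 and 0.09. Controls share only numbers with CIA rats. Replicates differed beyond counting error (chi-square per degree of freedom at least 271), so that at these depths the number of rats limits the precision. Alternatives were no filter, a mean FPKM of at least 10, upper quartile scaling, DESeq2 1.42.0, limma 3.58.1 on log2(FPKM + 1), all groups in 1 fit, haemoglobin genes left out, adjusted p, the replicate block, a pseudocount of 0.1, log2 CPM, and leaving out each sample. The tests were tried on simulated data first.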

Additional observations from a re-analysis of the deposited data

Results flagged for a closer look

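Of 48 sets of 4 samples (16 of members, 8 of the called pathway genes and 24 of marker sums, in Nampt++ and Nampt+ samples), 5 held a sample far from the others by Dixon's 95% critical value for the gap over the range, 0.829, which chance passes in about 1 of 20 sets. Among the members, Oscar in the Nampt++ sample of rat 1 was at 80.6 FPKM, where the next sample was at 9.997 (gap over range 0.911), and Acp5 in the same sample was at 74.5 FPKM, where the next was at 88.6 (0.927). In that sample the summed FPKM of NK cell markers was also the low one of its group, at 82.8 with the next at 307. The T cell marker sum was low in the Nampt+ sample of rat 2, at 404 with the next at 1237. The marker sum of osteoblasts and stromal cells was high for its group in the Nampt+ sample of rat 1, at 21.4 with the next at 11.4. The Nampt++ sample of the same rat was higher, at 38.2. Of the 9 genes of that list 3 averaged 1 FPKM or more, Bglap at 7.67, Alpl at 4.66 and Runx2 at 3.06 FPKM. Tnfrsf11b, Tnfsf11 and Sp7 were at 0 in all samples. The part of these marker levels in the values of the members was not tested.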

How the results depend on the processing

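No member was called under any alternative except Spi1 between Nampt++ samples and controls without control 2. Counts of all genes called, 77, 56 and 72 between Nampt++ samples and controls, Nampt+ samples and controls, and Nampt+ and Nampt++ samples, were 306, 261 and 295 with no filter, 25, 14 and 19 with a mean FPKM of at least 10, and 0, 0 and 0 by adjusted p under 0.05. Between Nampt++ samples and controls the count was 120 with DESeq2, 145 with limma and 46 with the replicate block, which there pairs numbers only and no rats. For pathway genes it was 1 in place of 0 in that comparison with no filter, DESeq2, limma or all 3 groups in 1 fit. By adjusted p it was 0 in place of 1 and of 4 in the others. Between Nampt+ and Nampt++ samples it was 2 with a mean FPKM of at least 10 or all groups in 1 fit and 7 with DESeq2, and with the replicate block, the rat, 3, Il1r1 being lost. With all groups in 1 fit Il1r1 and Fosb were lost. The causes were not tested.

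Leaving out 1 sample at a time, genes called ranged from 53 to 462, from 49 to 136 and from 58 to 165, pathway genes from 0 to 19, from 1 to 2 and from 3 to 10, and members from 0 to 1, 0 to 0 and 0 to 0 in the 3 comparisons. The highest counts were those without control 2 (462 and 136) and without the Nampt+ sample of rat 2 (165). With the rat as replicate block 56 genes were called between Nampt+ and Nampt++ samples.

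Signs changed only for values not past a threshold. Between Nampt++ samples and controls, the log2 fold change of Acp5 (-0.16) was 0.0267 with limma and 0.0487 with the replicate block, and that of Ctsk (0.04) was -0.0333 with upper quartile scaling and -0.12 with the block. Against controls in Nampt+ samples, Acp5 (-0.32) was 0.0056 with the block and Ctsk (0.04) was -0.0254 with limma and -0.0087 with the block. Between Nampt+ and Nampt++ samples, Ctsk (0.02) was -0.0127 with no filter, -0.0015 without haemoglobin genes, -0.0712 with limma and -0.00039 with the block, and Oscar (-0.85) was 0.11 with the block. Differences in mean log2(FPKM + 1) changed sign for Tnfrsf11a against controls, from 0.02 to -0.17 with a pseudocount of 0.1 and -1.11 with log2 CPM in Nampt++ samples and from 0.06 to -0.84 with log2 CPM in Nampt+ samples, and for Ctsk, from -0.03 to 0.00092 with log2 CPM.

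Without single samples the log2 fold change between Nampt++ samples and controls ranged from -0.19 to 0.0486 for Nfatc1, -0.43 to 0.50 for Acp5, -0.12 to 0.17 for Ctsk, -0.18 to 2.21 for Oscar, -0.0760 to 0.82 for Mitf, 0.43 to 1.67 for Spi1 and -0.21 to 0.97 for Csf1. In Nampt+ samples against controls it ranged from -0.0199 to 0.18 for Nfatc1, -0.58 to 0.36 for Acp5, -0.17 to 0.21 for Ctsk, -0.30 to 1.14 for Spi1 and -0.16 to 1.52 for Csf1. Between Nampt+ and Nampt++ samples it ranged from -0.19 to 0.19 for Ctsk, -1.59 to 0.97 for Oscar and -0.43 to 0.88 for Csf1. As mean log2(FPKM + 1), the difference of Nampt++ samples from controls ranged from -0.13 to 0.11 for Tnfrsf11a, -0.17 to 0.14 for Nfatc1, -0.43 to 0.69 for Acp5, -0.10 to 0.24 for Ctsk and -0.25 to 1.19 for Csf1. In Nampt+ samples against controls it ranged from -0.0151 to 0.17 for Tnfrsf11a, -0.0731 to 0.27 for Nfatc1, -0.68 to 0.45 for Acp5, -0.15 to 0.17 for Ctsk, -0.13 to 0.60 for Mitf and -0.0248 to 1.33 for Csf1. Between Nampt+ and Nampt++ samples it ranged from -0.0435 to 0.19 for Tnfrsf11a, -0.0821 to 0.30 for Nfatc1, -0.22 to 0.0742 for Ctsk, -0.88 to 0.55 for Oscar, -0.58 to 0.0140 for Mitf and -0.36 to 0.70 for Csf1.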

Other observations

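Further pathway genes show which partners of the members were present in blood. Tyrobp, the other adaptor of the costimulatory arm, was among the most abundant, at 698 ± 373 FPKM in controls (SD, n = 3), 1172 ± 536 in Nampt++ and 837 ± 231 in Nampt+ samples (SD, n = 4). Ctsb, a cathepsin of lysosomes in most cells, was at 503 ± 302, 747 ± 188 and 549 ± 242 FPKM in the same order, far above Ctsk. Traf6, which carries the signal of RANK, was at 22.1 ± 2.67, 23.2 ± 11.8 and 26.2 ± 16.3 FPKM, although RANK itself was read at under 1 FPKM in every sample. Pparg, which promotes osteoclast formation, was below a mean of 1 FPKM in each group. Tyrobp, Ctsb and Traf6 were not called in any comparison, and Pparg was not tested. Tyrobp, Ctsb, Traf6 and Pparg were chosen for this account after their values were seen.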
